A study of Mus musculus with 25 samples.

Results

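The subject was the expression of 3 nuclear receptors of steroid hormones, the estrogen receptor alpha gene Esr1, the glucocorticoid receptor gene Nr3c1 and the mineralocorticoid receptor gene Nr3c2, in macrophages sorted from mouse glioblastomas. These 3 genes of the 30749 in the deposited table were chosen by name with their levels in all 21 libraries known. Their levels and their differences between groups are therefore given as description, without a test.

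Glioblastoma is an aggressive brain tumour that is rich in macrophages. Microglia, which settle in the brain before birth, and monocyte-derived macrophages (MDM), which arrive through the circulation, had been sorted from tumours of types labelled 1 and 2, each either transplanted or spontaneous. The 9 MDM libraries came from type 2 transplanted (n = 2), type 1 transplanted (n = 4), type 2 spontaneous (n = 1) and type 1 spontaneous (n = 2) tumours, and the 12 microglia libraries were 3 from each of the same 4 tumour classes. Microglia of normal brain, 4 labelled samples, are not analysed here. Mouse strain, sex, age, tumour driver, sorting gate and read strand are absent from the labels. Nor do the labels tie each library to its own mouse, so errors and p-values reflect only how these libraries scatter, part of which may be technical. In RNA of pooled cells, fewer cells of a type and less RNA per cell cannot be told apart.

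These receptors are transcription factors that are switched on by a hormone. Without hormone the glucocorticoid and mineralocorticoid receptors are held by HSP90 chaperone complexes; with hormone they bind DNA as dimers and recruit coactivators or corepressors. In macrophages and microglia the glucocorticoid receptor is known for restraining inflammatory genes, and the mineralocorticoid receptor, which also binds glucocorticoids, is known in mice for favouring inflammatory activation of macrophages. Estrogen receptor alpha mediates most transcriptional effects of estradiol in myeloid cells.

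In the annotation of GRCm38 by RefSeq, Esr1 spans chr10:4611989-5005633 and Nr3c2 spans chr8:76898083-77245012, both on the plus strand. GENCODE M21 lists 10 transcripts for Esr1 and 8 for Nr3c2, and the exons of their coding transcripts cover 7.75 and 6.34 kb. No other annotated gene overlaps Esr1, and 3 genes without an established name (Gm10649, Gm24838 and Gm23260) lie within the span of Nr3c2. The sequences upstream of the annotated starts are shown because the receptors themselves bind short DNA elements, which can be looked for at their own genes. RefSeq (GRCm38.p6) gives a pair of starts for Esr1 and 1 for Nr3c2, and the stretches below end at the base before a coding transcript begins. They lie at chr10:4611739-4611988, chr10:4709908-4710154 and chr8:76902080-76902287, all on the plus strand. The first lies just before the RefSeq span of Esr1. The second Esr1 stretch and the Nr3c2 stretch lie inside the RefSeq spans of their genes. Capitals mark TGACC or its reverse complement GGTCA, the half-site of an estrogen response element.
Esr1, first start: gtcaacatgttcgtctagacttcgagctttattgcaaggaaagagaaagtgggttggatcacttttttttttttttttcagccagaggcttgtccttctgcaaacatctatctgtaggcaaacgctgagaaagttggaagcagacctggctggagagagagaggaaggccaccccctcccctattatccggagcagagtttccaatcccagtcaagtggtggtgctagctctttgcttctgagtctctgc
Esr1, second start: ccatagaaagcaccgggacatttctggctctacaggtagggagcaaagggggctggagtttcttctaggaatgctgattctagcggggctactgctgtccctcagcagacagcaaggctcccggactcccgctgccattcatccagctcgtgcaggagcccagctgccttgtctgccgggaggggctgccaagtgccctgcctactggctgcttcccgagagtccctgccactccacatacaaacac
Nr3c2: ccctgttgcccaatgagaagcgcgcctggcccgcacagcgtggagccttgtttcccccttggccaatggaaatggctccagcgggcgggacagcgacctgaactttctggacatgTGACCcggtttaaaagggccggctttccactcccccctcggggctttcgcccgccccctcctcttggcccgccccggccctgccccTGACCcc
The Nr3c2 stretch held 2 copies of TGACC, and neither Esr1 stretch held a copy on either strand. Of 32851 RefSeq promoter windows of 250 bases, 35.2% held at least 1 copy. None of the 3 stretches held AGAACA or TGTTCT, the half-site of a glucocorticoid response element, which 16.1% of the windows held. Their G and C content was 47.6%, 59.9% and 67.3%, against a median of 52.4% over all windows.

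Libraries held 26530069 to 50365607 reads, and 16297 to 21435 genes were detected in each. Levels are read counts normalised for library size, with means ± SD. Group differences in markers matched the sorted cell types in limma-trend fits over 17216 genes. All 12 microglia markers checked were lower in MDM than in microglia, and all 12 MDM markers were higher. By library the summed MDM markers overlapped, at 137000 to 879000 in MDM and 71200 to 168000 in microglia. Transcripts of other cells were present in MDM libraries. The summed level of 16 T and NK cell markers was 13400 to 333000 in MDM and 306 to 6900 in microglia. The MDM libraries that held the most were 5 (type 1 transplanted 1 to 4 and type 2 transplanted 1). In type 1 transplanted MDM libraries 1, 2 and 3 this sum (275488, 288753 and 332552) exceeded that of the 12 MDM markers (258002, 136857 and 209619). In the other MDM libraries the T and NK cell sum was the lower one. In transplanted microglia this sum was 511 to 6900, against 306 to 698 in spontaneous microglia, and 8 of the 16 markers were higher in transplanted microglia. Differences are therefore also given without these 5 MDM libraries, and without 3 microglia libraries, choices made after seeing the data. Leaving out the 5 removes every type 1 transplanted MDM library, so that class drops out of MDM minus microglia. The effect of this cannot be told apart from that of T and NK cell content. Of the 3 microglia libraries, type 1 transplanted 1 and 2 held the most T and NK cell transcripts (4408 and 6898). The third, type 1 spontaneous 2, held the most dendritic cell transcripts (2915) of the microglia libraries. Without these 3, type 1 transplanted microglia keep only library 4. Neutrophil transcripts were highest in another microglia library, type 2 transplanted 2, whose summed level of 10 markers was 5208, against 17.2 to 1378 in the other microglia libraries. That library also had the highest sum of neural and glial markers among the microglia libraries, 13861.

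Esr1 was high in microglia of transplanted tumours and far lower in every other group. Microglia of type 2 transplanted tumours held 2161, 2300 and 1874 normalised counts of Esr1, and microglia of type 1 transplanted tumours held 1407, 1444 and 2596. Microglia of type 2 spontaneous tumours held 33.7, 48.5 and 137.7, and microglia of type 1 spontaneous tumours held 148.4, 126.2 and 29.0. The lowest transplanted microglia library thus lay above the highest spontaneous one, and all 36 pairs of a transplanted and a spontaneous library had the transplanted one higher. The means were 1964 ± 477 in transplanted microglia and 87.3 ± 55.8 in spontaneous microglia (SD, n = 6 each), a ratio of 22.5. Within tumour type the ratio of transplanted to spontaneous microglia was 28.8 in type 2 and 17.9 in type 1. The fitted log2 difference, transplanted minus spontaneous microglia, was 4.74 ± 0.45 (SE), or 26.7-fold. It was 5.18 ± 0.61 without the 3 microglia libraries richest in T and NK or dendritic cell transcripts. That fit leaves type 1 transplanted microglia with only the library at 2596. Without the library richest in neutrophil transcripts the difference was 4.71 ± 0.50. The canonical microglia marker Tmem119 averaged 176000 ± 48870 in these transplanted microglia and 179400 ± 33610 in spontaneous microglia.

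Esr1 in MDM followed the same order of models at lower levels. MDM of type 2 transplanted tumours held 213.3 and 570.3 normalised counts, and MDM of type 1 transplanted tumours held 200.0, 166.8, 326.4 and 352.2. The library of MDM from type 2 spontaneous tumours held 47.2, and the MDM libraries of type 1 spontaneous tumours held 32.6 and 115.8. The transplanted and spontaneous MDM did not overlap, with means of 305 ± 149 (n = 6) in transplanted MDM and 65.2 ± 44.4 (n = 3) in spontaneous MDM, a ratio of 4.68. In type 1 MDM the fitted log2 difference, transplanted minus spontaneous, was 2.00 ± 0.68. It was 1.10 without type 1 spontaneous MDM library 1 and 2.90 without library 2 of that group. The type 2 difference in MDM rests on 1 spontaneous library and has no replicate check.

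The ratio of Esr1 between MDM and microglia was smaller in transplanted than in spontaneous tumours, a difference between models that was not tested. In transplanted tumours the MDM mean was 18.6% of the microglia mean in type 2 and 14.4% in type 1, and the libraries did not overlap in either type. In spontaneous tumours it was 64.4% in type 2 and 73.3% in type 1, and the libraries overlapped. Over all 4 tumour classes the fitted log2 difference, MDM minus microglia, was -1.54 ± 0.37. It was -0.88 ± 0.53 without the 5 MDM libraries richest in T and NK cell transcripts, a fit that lacks the type 1 transplanted class. Tmem119 in MDM was 6.22% of its microglia mean in type 2 transplanted and 0.805% in type 1 transplanted tumours. It was 12.7% in type 2 spontaneous and 14.6% in type 1 spontaneous tumours. Type 2 transplanted MDM libraries 1 and 3, with Esr1 at 213.3 and 570.3, had summed levels of 12 microglia markers of 35855 and 245626. Microglia of that class had sums of 877361 to 1414350. In type 1 transplanted tumours the sum was 13800 to 22400 in MDM and 1180000 to 1250000 in microglia. In spontaneous tumours it was 104000 to 235000 in MDM and 665000 to 1520000 in microglia. The part of carried-over microglial RNA in the Esr1 reads of MDM was not tested.

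Type 2 and type 1 microglia overlapped in Esr1. The means were 1092 ± 1125 in type 2 and 958 ± 1033 in type 1 microglia (n = 6 each), and the fitted log2 difference, type 2 minus type 1, was -0.07 ± 0.45, and between -0.44 and 0.14 with each library left out. From the highest group mean to the lowest, Esr1 ran through microglia of type 2 and type 1 transplanted tumours, MDM of type 2 and type 1 transplanted tumours, microglia and MDM of type 1 spontaneous tumours, and microglia and MDM of type 2 spontaneous tumours. Libraries of neighbouring groups in this order overlapped except between transplanted microglia and transplanted MDM, and between transplanted MDM and the spontaneous groups. Recovered reads of Esr1 ranged from 18 to 3482 in microglia and from 40 to 653 in MDM, so the low groups were still above the count of a few reads.

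**Figure D1:**
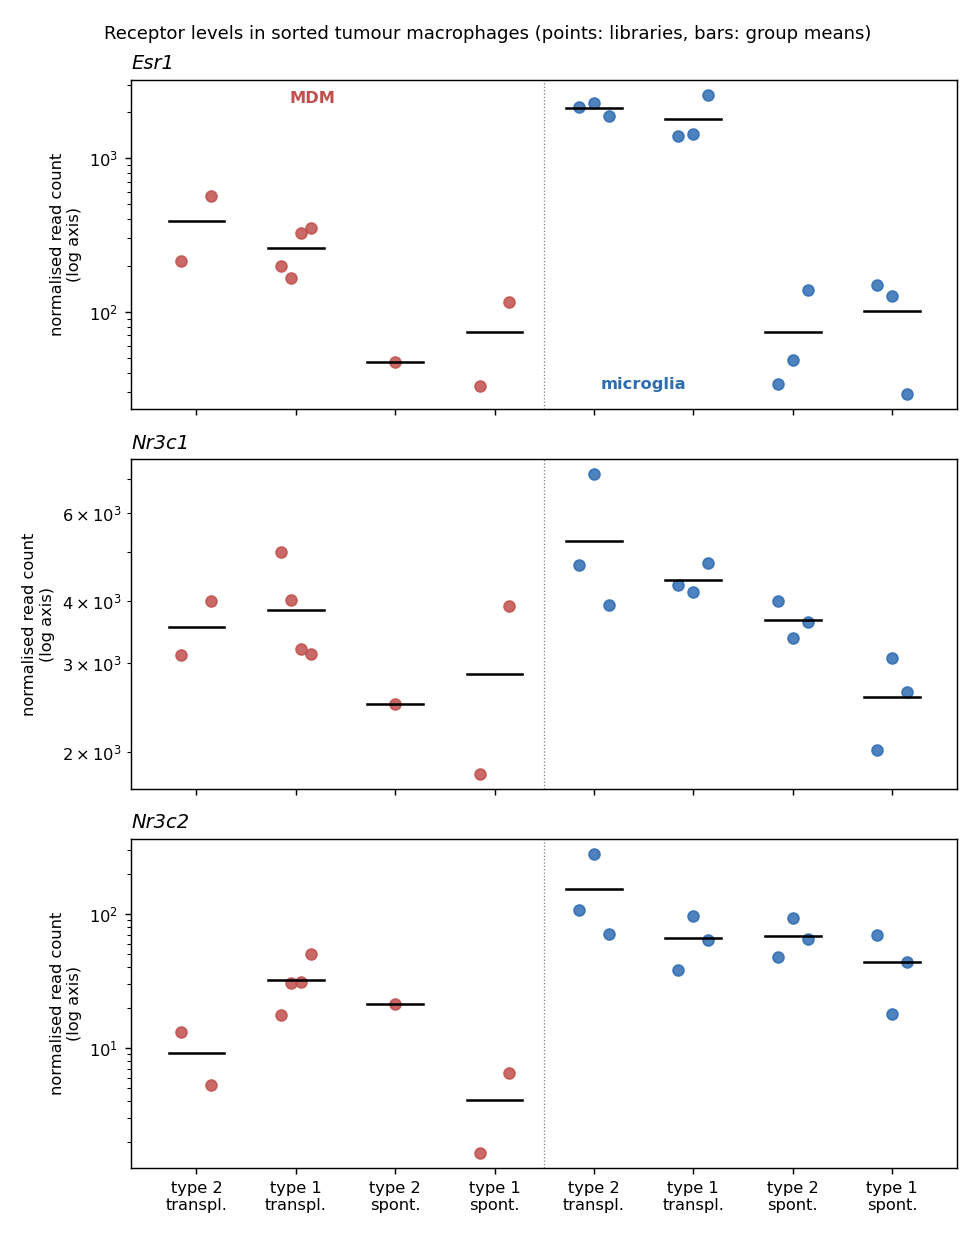
Normalised read counts of Esr1, Nr3c1 and Nr3c2 (log axis) in the 8 groups, MDM in red on the left and microglia in blue on the right of each panel; points are libraries and bars are group means. The Esr1 panel has the 6 transplanted microglia libraries between 1407 and 2596, above every other library, while the Nr3c1 groups overlap their neighbours and the Nr3c2 levels are lower in MDM.

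The libraries also differed in sex-linked transcripts, which do not follow the groups. Xist, the RNA of the inactive X chromosome, exceeded the Y-linked Ddx3y in 12 libraries, and the reverse held in 9. Esr1 was 1407 to 2300 in the 3 transplanted microglia libraries with more Xist and 1444 to 2596 in the 3 with more Ddx3y. It was 29.0 to 137.7 in the 4 spontaneous microglia libraries with more Xist and 48.5 to 148.4 in the 2 with more Ddx3y. With the Xist level as a covariate the fitted log2 difference between transplanted and spontaneous microglia was 4.75 ± 0.47.

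Nr3c1 was the most abundant of the receptors in every group when levels are taken per kb of exon. Per kb it averaged 444 ± 123 normalised counts in MDM and 518 ± 168 in microglia, against 3.11 ± 2.45 in MDM and 13.1 ± 10.6 in microglia for Nr3c2. Esr1 per kb was 253 ± 61.6 in transplanted and 11.3 ± 7.20 in spontaneous microglia, and 39.3 ± 19.3 in transplanted and 8.41 ± 5.73 in spontaneous MDM. All libraries held between 1629 and 9401 reads of Nr3c1. The gene spans chr18:39410545-39519421 on the minus strand, with 9 transcripts whose coding forms cover 7.68 kb, and no other annotated gene overlaps it.

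Nr3c1 did not separate the cell types. MDM held 3120 and 3989 normalised counts in type 2 transplanted tumours, 5019, 4011, 3213 and 3131 in type 1 transplanted tumours, 2491 in the type 2 spontaneous library, and 1805 and 3903 in type 1 spontaneous tumours. Microglia held 4713, 7160 and 3920 in type 2 transplanted, 4301, 4160 and 4764 in type 1 transplanted, 3990, 3378 and 3623 in type 2 spontaneous, and 2014, 3081 and 2626 in type 1 spontaneous tumours. The ranges overlapped between MDM and microglia, whose means were 3409 ± 945 (n = 9) and 3977 ± 1293 (n = 12), and the fitted log2 difference, MDM minus microglia, was -0.31 ± 0.17. It was -0.28 ± 0.23 without the 5 MDM libraries richest in T and NK cell transcripts.

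Among microglia, Nr3c1 was higher in transplanted than in spontaneous tumours, by far less than Esr1. The means were 4836 ± 1184 in transplanted and 3119 ± 714 in spontaneous microglia, a fitted log2 difference of 0.64 ± 0.20 (1.56-fold), and 35 of 36 pairs of libraries had the transplanted one higher. The difference was 0.76 ± 0.28 without the 3 microglia libraries richest in T and NK or dendritic cell transcripts. In type 1 microglia the transplanted and spontaneous libraries did not overlap, at a ratio of means of 1.71. Library 2 of type 2 transplanted microglia, at 7160, was the highest of all, and the difference was 0.51 ± 0.21 without it. By tumour type, spontaneous microglia of type 2 lay above those of type 1 without overlap (a ratio of 1.42), and over both models the fitted log2 difference, type 2 minus type 1 microglia, was 0.37 ± 0.20. In type 1 MDM, transplanted minus spontaneous, it was 0.51 ± 0.31, and it was -0.05 without type 1 spontaneous MDM library 1 and 1.06 without library 2. Every group overlapped its neighbour in the order of group means, which ran from 5265 ± 1689 in microglia of type 2 transplanted tumours to 2491 in the MDM library of type 2 spontaneous tumours.

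Nr3c2 was lower in MDM than in microglia. MDM held 13.1 and 5.24 normalised counts in type 2 transplanted tumours, 17.6, 30.6, 31.0 and 50.1 in type 1 transplanted tumours, 21.4 in the type 2 spontaneous library, and 1.63 and 6.50 in type 1 spontaneous tumours. Microglia held 107.4, 280.3 and 70.5 in type 2 transplanted, 38.1, 96.3 and 64.1 in type 1 transplanted, 48.0, 93.5 and 65.0 in type 2 spontaneous, and 69.2, 17.8 and 43.5 in type 1 spontaneous tumours. The MDM libraries lay below the microglia libraries of their own tumour class without overlap in 3 of the 4 classes, and overlapped them in type 1 transplanted tumours. The means were 19.7 ± 15.5 in MDM (n = 9) and 82.8 ± 67.4 in microglia (n = 12), and the fitted log2 difference, MDM minus microglia, was -2.38 ± 0.43, or 5.19-fold lower. It was -3.03 ± 0.58 without the 5 MDM libraries richest in T and NK cell transcripts. The MDM mean was 6.01% of the microglia mean in type 2 transplanted, 48.8% in type 1 transplanted, 31.1% in type 2 spontaneous and 9.35% in type 1 spontaneous tumours.

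The counts behind Nr3c2 were small, from 2 to 69 reads in MDM libraries and 19 to 368 in microglia libraries. The type 1 spontaneous MDM libraries held 2 and 5 reads, with exact Poisson 95% intervals of 0.242 to 7.22 and 1.62 to 11.7 reads, which cover counting error only. In microglia the fitted log2 difference was 0.82 ± 0.52 for transplanted minus spontaneous and 0.92 ± 0.52 for type 2 minus type 1, with overlapping libraries in both. The means by type were 110.8 ± 85.7 in type 2 and 54.8 ± 27.6 in type 1 microglia. Within MDM, type 1 transplanted libraries lay above both the type 2 transplanted and the type 1 spontaneous libraries without overlap. The fitted log2 differences were -1.74 ± 0.78 for type 2 minus type 1 transplanted MDM and 2.82 ± 0.78 for transplanted minus spontaneous type 1 MDM. Between transplanted and spontaneous type 1 MDM the summed T and NK cell markers were 275000 to 333000 in transplanted and 13400 to 24800 in spontaneous MDM, and their part in the Nr3c2 difference was not tested.

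Across libraries the receptors moved together only loosely. Over the 21 libraries, on log2(normalised count + 1), Pearson's r was 0.67 between Esr1 and Nr3c1, 0.45 between Esr1 and Nr3c2 and 0.48 between Nr3c1 and Nr3c2. Over the 12 microglia libraries the values were 0.67, 0.44 and 0.57, and over the 9 MDM libraries 0.67, 0.42 and 0.36. In the same order Spearman's rho, which uses ranks, was 0.68, 0.45 and 0.36 over the 21 libraries. It was 0.76, 0.52 and 0.41 over the microglia libraries, and 0.38, 0.33 and 0.15 over the MDM libraries. These libraries share tumour classes and cell types, so the coefficients describe this set of libraries.

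Of the genes ranked, those whose levels were most like Esr1 were Nlrp1a, of the Nlrp1 family of inflammasome sensors, and a pseudogene of that family. Among 11191 genes with a mean of at least 50 normalised counts, Nlrp1c-ps, a pseudogene copy (chr11:71242430-71285232), had the highest r with Esr1 over the 21 libraries (0.905), followed by Nlrp1a (chr11:71091197-71144969, 0.892). Over the 12 microglia libraries the same pair led, with r of 0.984 and 0.977. Nlrp1c-ps averaged 216 in transplanted and 1.95 in spontaneous microglia, and 112.9 in transplanted and 4.61 in spontaneous MDM. It thus reached the mean of 50 only through transplanted libraries. Both genes split by model like Esr1, so r over both models includes that split, and r within a model was not computed. Nlrp1a encodes a sensor that starts pyroptosis, and averaged 483 ± 141 normalised counts in transplanted and 8.18 ± 6.75 in spontaneous microglia. In MDM it averaged 230 ± 190 in transplanted and 14.0 ± 1.99 in spontaneous tumours. Like Nlrp1c-ps, Nlrp1a thus reached the mean of 50 only through transplanted libraries. Reads of Nlrp1a and Nlrp1c-ps may be shared, since they are near copies, so their separate levels are uncertain. Next in line over the 21 libraries were Gmfb, Pja2 and Cul1 (r of 0.854, 0.829 and 0.827), and over the microglia Chd2, Zfp33b and Spg20 (0.961, 0.956 and 0.947).

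**Figure D2:**
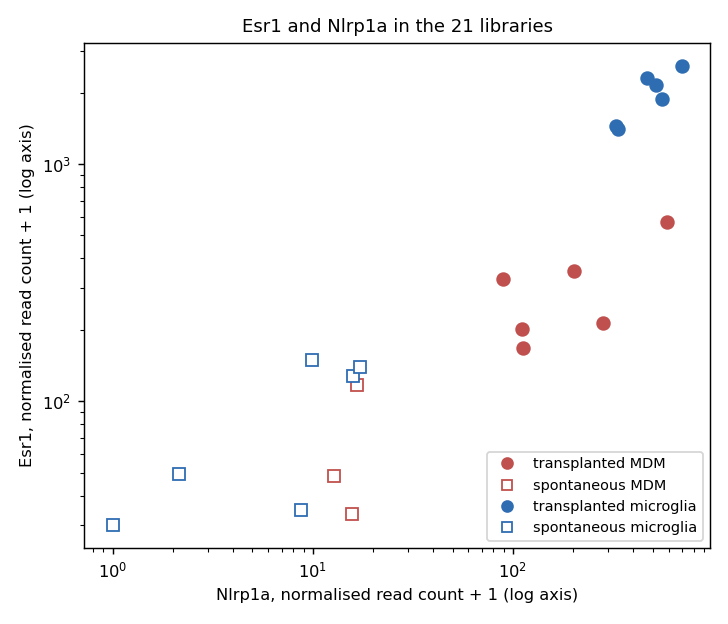
Normalised read counts + 1 of Nlrp1a (x axis, log) and Esr1 (y axis, log) in the 21 libraries; red marks MDM, blue microglia, filled symbols transplanted and open symbols spontaneous tumours. Transplanted microglia form the group at the top right and spontaneous libraries lie at the lower left. Over the log2 values r is 0.892, which includes the split between models.

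The genes most like Nr3c1 over the 21 libraries were Zfp65 (r = 0.868), Zfx, Iigp1, Washc4 and Gbp7 (0.748). Iigp1 and Gbp7 are interferon-induced GTPases. Iigp1 averaged 4146 in transplanted and 640.7 in spontaneous microglia, and Gbp7 averaged 5331 in transplanted and 1428 in spontaneous microglia. Over the 12 microglia libraries the 5 most alike were Stxbp3 (0.917), Apbb1, P3h2, Pcmtd2 and Zfp760 (0.905). Their Spearman's rho was 0.748, 0.846, 0.888, 0.895 and 0.874, in the same order. For Nr3c2 the list over the 21 libraries was St3gal6 (0.842), Dlg3, Epn2, Zfp937 and Fut11 (0.804), all with a lower mean in MDM. St3gal6, a sialyltransferase, averaged 729.1 in MDM and 2847 in microglia, and Epn2, an adaptor of endocytosis, averaged 35.7 in MDM and 278.7 in microglia. Over the microglia libraries they were Ythdf2 (0.919), Zfp935, Il6ra, Mfap3 and Cyb561a3 (0.850), with Spearman's rho of 0.937, 0.762, 0.643, 0.797 and 0.622. Type 2 transplanted microglia library 2 was the highest microglia library for Nr3c1 (7160) and Nr3c2 (280.3). Its part in these microglia coefficients was not tested.

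The wider pathway was described with 7 lists of other genes: related receptors, enzymes that make or inactivate steroid ligands, receptor chaperones, receptor coregulators, and genes known to be induced by glucocorticoids, by the mineralocorticoid receptor in epithelia, or by estrogen. Every adjusted p comes from the limma-trend fit and was adjusted by the Benjamini-Hochberg method across the 17216 genes tested. Lists and members were chosen with results of these libraries known. Between MDM and microglia 54 of the 87 tested list genes were called, against 42.7% of all genes tested (23.0% higher and 19.8% lower). Several of these counts were smaller without the 5 MDM libraries richest in T and NK cell transcripts, a comparison in which 4133 genes were called in place of 7356.

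Among the related receptors, the estrogen-related receptor gene Esrra was lower in MDM, with 1000 ± 480 in MDM and 1251 ± 233 in microglia (-0.57 ± 0.22, adjusted p = 0.049), a call that was lost in 21 of the alternative fits. Gper1, the membrane estrogen receptor, was 0.897 ± 1.43 in MDM and 6.13 ± 7.54 in microglia and was not called (adjusted p = 0.27). Esr2, which encodes estrogen receptor beta, was listed at 0 in the MDM libraries and at 0 to 5.84 in microglia libraries, and the progesterone receptor gene Pgr was at most 10.2 in any library. Esr2, Pgr and the other estrogen-related receptors Esrrb and Esrrg were too low to test.

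Of the enzymes that activate or inactivate glucocorticoid, Hsd11b1 was far higher in MDM. Hsd11b1, which regenerates active glucocorticoid from its inert keto form, was 3351 ± 2196 in MDM and 34.8 ± 33.6 in microglia (log2 difference 6.51 ± 0.62, adjusted p = 1.7e-07). The ranges were 274 to 5963 in MDM and 1.49 to 109.4 in microglia, and they did not overlap. Without the 5 MDM libraries the difference was 5.50 (adjusted p = 0.0011). By group, Hsd11b1 averaged 3390 and 4665 in MDM of type 2 and type 1 transplanted tumours, 3664 in the type 2 spontaneous MDM library and 526.4 in MDM of type 1 spontaneous tumours. Hsd11b2, which inactivates glucocorticoid, was too low to test, at 3.91 ± 5.13 in MDM and 0.328 ± 0.694 in microglia. H6pd, which supplies the cofactor of Hsd11b1, was lower in MDM, with 947 ± 341 in MDM and 1638 ± 781 in microglia (-0.70 ± 0.27, adjusted p = 0.046), and this call was lost in 18 of the alternative fits.

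Of the 12 tested genes of steroid ligand metabolism, 2 were higher in MDM (Hsd11b1 and Cyp11a1) and 4 were lower (H6pd, Sts, Hsd17b4 and Hsd17b12). The shares over all genes tested were 23.0% higher and 19.8% lower. The median log2 difference of the list was -0.43, against 0.07 over all genes. Sts, the steroid sulfatase, averaged 295 ± 237 in MDM and 521 ± 222 in microglia (-2.18 ± 0.49, adjusted p = 0.0015), and its adjusted p was 0.059 without the type 2 spontaneous MDM library. Hsd17b4 averaged 3487 ± 1221 in MDM and 5972 ± 1411 in microglia (-0.60 ± 0.13, adjusted p = 0.0012). Without the 5 MDM libraries 1 gene was higher and 1 lower, and Cyp11a1, the first enzyme of steroid synthesis, was not called (adjusted p = 0.63). Aromatase, encoded by Cyp19a1, was listed at 0 in all libraries.

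Of 15 receptor chaperones 2 were higher in MDM (Stip1 and Dnajb1) and 6 were lower (Hsp90aa1, Fkbp5, St13, Ppid, Ppp5c and Bag1). The shares over all genes tested were 23.0% higher and 19.8% lower. Ppp5c, a phosphatase of the receptor complex, averaged 2122 ± 361 in MDM and 3466 ± 488 in microglia (-0.74 ± 0.12, adjusted p = 7.4e-05). St13, the HSP70-interacting protein, differed by -0.72 ± 0.13 (adjusted p = 0.00026). Fkbp4, the cochaperone that promotes nuclear entry of the receptor, was 5263 ± 1988 in MDM and 4373 ± 1025 in microglia, and was not called (0.04 ± 0.18, adjusted p = 0.88). The count of 2 higher chaperones was 1 to 3 with each library left out, 5 with the same total and 0 without the 5 MDM libraries. Only 2 chaperones were lower without the 5 MDM libraries, and 2 without the type 2 spontaneous MDM library.

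Of 15 coregulators 3 were higher in MDM (Ncoa2, Crebbp and Ppargc1a) and 3 were lower (Nrip1, Ncor1 and Pelp1). The shares over all genes tested were 23.0% higher and 19.8% lower, 42.7% in all. The coactivator gene Ncoa2 averaged 1025 ± 347 in MDM and 481 ± 213 in microglia (1.04 ± 0.26, adjusted p = 0.0034). Nrip1, a corepressor that estrogen induces, averaged 2572 ± 1013 in MDM and 3798 ± 1679 in microglia (-0.77 ± 0.20, adjusted p = 0.0048), and its adjusted p was 0.13 without the type 2 spontaneous MDM library. None of the 3 higher coregulators was called without the 5 MDM libraries.

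Genes known to be induced by glucocorticoids did not move one way between the cell types. Of 21 tested, 9 were higher in MDM and 8 were lower, with a median log2 difference of 0.06. The shares over all genes tested were 23.0% higher and 19.8% lower. Tsc22d3, the glucocorticoid-induced leucine zipper gene, averaged 21140 ± 13260 in MDM and 4046 ± 2496 in microglia (2.57 ± 0.32, adjusted p = 3.5e-06). Il1r2, a decoy receptor of interleukin-1, averaged 2201 ± 2334 in MDM and 96.1 ± 188 in microglia (6.35 ± 0.97, adjusted p = 3.3e-05). Among the lower genes, Mertk, a receptor for the uptake of dying cells, averaged 1366 ± 1398 in MDM and 12500 ± 6267 in microglia (-3.20 ± 0.30, adjusted p = 1.4e-07). Glul, glutamine synthetase, averaged 1551 ± 883 in MDM and 8958 ± 3898 in microglia (-2.27 ± 0.22, adjusted p = 2.5e-07). Mertk is also known as part of the microglial expression signature. The kinase gene Sgk1 averaged 9476 ± 7791 in MDM and 25130 ± 9760 in microglia (-1.34 ± 0.22, adjusted p = 7.2e-05). Fkbp5, which dampens the glucocorticoid receptor, averaged 2863 ± 3525 in MDM and 3907 ± 1578 in microglia (-0.87 ± 0.26, adjusted p = 0.011). Without the 5 MDM libraries 6 of the list were higher and 2 lower, and Sgk1 (adjusted p = 0.099) and Fkbp5 (adjusted p = 0.087) were among those no longer called.

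Of 14 tested mineralocorticoid receptor targets of epithelia, 6 were higher in MDM and 5 were lower. The estrogen-induced genes had 4 of 12 higher and 5 lower, against 23.0% higher and 19.8% lower over all genes tested. Scnn1a, a subunit of the epithelial sodium channel, averaged 745 ± 659 in MDM and 14.6 ± 23.4 in microglia (6.28 ± 0.86, adjusted p = 1.1e-05). Atp1b1, a subunit of the sodium pump, averaged 1360 ± 1226 in MDM and 14.9 ± 9.91 in microglia (5.03 ± 0.58, adjusted p = 1.4e-06). It was 1470 to 3220 in type 1 transplanted MDM, and 130.1 and 2448 in type 2 transplanted MDM. In spontaneous MDM it was 46.4 and 49.4 in type 1 and 428.8 in type 2, against 0 to 38.0 in microglia. The part of T and NK cell transcripts in the Atp1b1 difference was not tested. Usp2, a deubiquitinase, averaged 980 ± 1024 in MDM and 6546 ± 1490 in microglia (-3.10 ± 0.23, adjusted p = 1.5e-08). Of the estrogen-induced genes, Rara, a retinoic acid receptor, averaged 4818 ± 3336 in MDM and 125 ± 269 in microglia (7.63 ± 0.94, adjusted p = 3.3e-06). Ctsd, a lysosomal protease, differed by -3.13 ± 0.32 (adjusted p = 4e-07), and Igfbp4 by -1.24 ± 0.26 (adjusted p = 0.00082). Greb1, an early estrogen target, was too low to test, at 1.95 ± 3.89 in MDM and 6.49 ± 18.9 in microglia. Without the 5 MDM libraries 2 mineralocorticoid targets were called lower and 2 estrogen-induced genes were called higher.

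**Figure D3:**
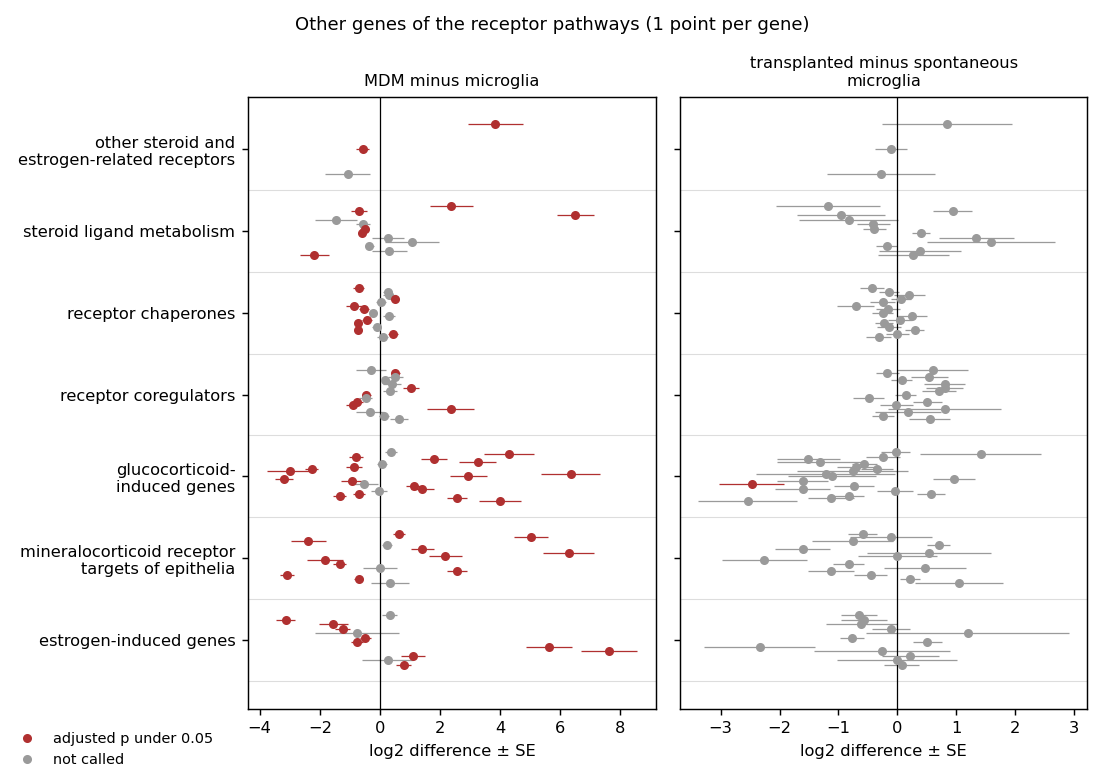
Log2 differences ± SE of the tested genes of the 7 lists, MDM minus microglia on the left and transplanted minus spontaneous microglia on the right, 1 point per gene, red where the adjusted p was under 0.05. Calls lie on both sides of 0 in the left panel, 54 in all, and 1 of 87 genes is called in the right panel.

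Where Esr1 differed most, between transplanted and spontaneous microglia, few genes were called, in the pathway lists or among all genes. Of 87 tested list genes 1 was called by limma-trend, against 1.84% of all genes tested, and voom called 0. In the limma-trend fit 24 list genes had an unadjusted p under 0.05 (9 higher and 15 lower), against 3339 of all 17216 genes tested. The called gene was the metallothionein gene Mt2, at 83.2 ± 69.9 in transplanted and 393 ± 347 in spontaneous microglia (-2.47 ± 0.55, adjusted p = 0.028), a call that was lost in 10 of the alternative fits. Of the estrogen-induced genes 0 of 12 were called, and their median log2 difference was -0.18, against 0.04 over all genes. Myc was 2633 ± 312 in transplanted and 4499 ± 718 in spontaneous microglia (-0.77 ± 0.20, adjusted p = 0.061) and was called lower in 8 of the alternative fits. Ccnd1 and Ramp3 had differences of -0.65 ± 0.31 and -2.34 ± 0.94 (adjusted p = 0.26 and 0.19). Nrip1 had a difference of 0.51 ± 0.25 (adjusted p = 0.27).

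The glucocorticoid-induced list had a median log2 difference of -0.76 between transplanted and spontaneous microglia, while Nr3c1 itself had 0.64. Tsc22d3 averaged 2390 ± 793 in transplanted and 5702 ± 2549 in spontaneous microglia (-1.12 ± 0.39, adjusted p = 0.14). Per1, a clock gene, averaged 195 ± 104 in transplanted and 584 ± 342 in spontaneous microglia (-1.61 ± 0.47, adjusted p = 0.085). Sgk1 averaged 18480 ± 7125 in transplanted and 31770 ± 7270 in spontaneous microglia (-0.83 ± 0.27, adjusted p = 0.11), and Fkbp5 averaged 2932 ± 748 in transplanted and 4882 ± 1624 in spontaneous microglia (-0.71 ± 0.32, adjusted p = 0.23). None of these 4 passed the test. The count of lower genes on this list was 6 with array weights and 0 without the same 3 microglia libraries or without type 2 transplanted microglia library 2. The coregulators had a median of 0.51 with 0 of 15 called; Ncoa1, Ncoa2 and Ncoa3 had differences of 0.80 ± 0.35, 0.80 ± 0.32 and 0.70 ± 0.29 (adjusted p of 0.22, 0.19 and 0.19).

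Between type 2 and type 1 microglia 0 of the 87 list genes were called by limma-trend, against 0.470% of all genes tested, and voom called 0. In the limma-trend fit 8 list genes had an unadjusted p under 0.05 (3 higher and 5 lower), against 1530 of all 17216 genes tested. The smallest adjusted p was that of Sesn1, a stress-induced gene, at 4493 ± 638 in type 2 and 2688 ± 1055 in type 1 microglia (log2 difference 0.84 ± 0.24, adjusted p = 0.18). Nrip1 averaged 4804 ± 1653 in type 2 and 2792 ± 1021 in type 1 microglia (log2 difference 0.78 ± 0.25, adjusted p = 0.27).

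In transplanted MDM, type 2 minus type 1, 9 of 87 list genes were called, against 5.91% of all genes tested (2.96% higher and 2.96% lower). The receptors had fitted log2 differences of 0.49 ± 0.68 for Esr1, -0.10 ± 0.31 for Nr3c1 and -1.74 ± 0.78 for Nr3c2. The Esr1 difference was -0.22 without type 2 transplanted MDM library 3, and the Nr3c1 difference was 0.08 without library 1 of that group. Of the glucocorticoid-induced genes 4 of 21 were higher in type 2 (Mertk, Cebpd, Mt1 and Mt2) and 0 were lower. Mertk averaged 1366 ± 1001 in type 2 and 233 ± 79.7 in type 1 transplanted MDM (2.38 ± 0.54, adjusted p = 0.015), and Usp2 differed by 2.95 ± 0.42 (adjusted p = 0.00074). The count of 4 was 0 without type 2 transplanted MDM library 3, and the calls of Mt2, Mt1, Cebpd and Mertk were lost in 20, 6, 5 and 3 of the alternative fits. Microglia markers were higher in the same direction, 9 of 12 of them, with sums of 35900 to 246000 in type 2 and 13800 to 22400 in type 1 transplanted MDM, and their part in these calls was not tested.

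In type 1 MDM, transplanted minus spontaneous, 20 of 87 list genes were called, against 13.7% of all genes tested (5.79% higher and 7.96% lower). Of the glucocorticoid-induced genes 0 were higher and 7 were lower in transplanted MDM, with a median log2 difference of -1.73, against 0.02 over all genes. Sgk1 averaged 3124 ± 858 in transplanted and 20530 ± 2743 in spontaneous type 1 MDM (-2.75 ± 0.40, adjusted p = 0.00028). Fkbp5 averaged 1458 ± 679 in transplanted and 8145 ± 5068 in spontaneous type 1 MDM (-2.49 ± 0.48, adjusted p = 0.002), and Tsc22d3 averaged 15780 ± 9951 in transplanted and 33510 ± 14390 in spontaneous type 1 MDM and was not called (-1.19 ± 0.58, adjusted p = 0.20). Without type 1 spontaneous MDM library 2 the count of lower genes on this list was 2.

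The mineralocorticoid targets had 3 of 14 higher and 5 lower in transplanted type 1 MDM, and the estrogen-induced genes 1 of 12 higher and 2 lower. The shares over all genes tested were 5.79% higher and 7.96% lower. Of these mineralocorticoid targets 1 was called higher without type 1 spontaneous MDM library 1, and 3 were called lower without library 2 of that group. Usp2 differed by -4.19 ± 0.42 (adjusted p = 1.5e-05) and Atp1b1 by 5.49 ± 1.06 (adjusted p = 0.0021), and the cyclin gene Ccnd1 by -2.66 ± 0.46 (adjusted p = 9e-04). Hsd11b1 averaged 4665 ± 863 in transplanted and 526.4 ± 357.5 in spontaneous type 1 MDM and was not called (3.32 ± 1.13, adjusted p = 0.058), though it was in 11 of the alternative fits. Other cells moved with this comparison too. Of the microglia markers 9 of 12 were lower, with sums of 13800 to 22400 in transplanted and 104000 to 235000 in spontaneous type 1 MDM, and 12 of 16 T and NK cell markers were higher. All 9 B cell markers were higher too, with sums of 19800 to 47700 in transplanted and 760 to 2510 in spontaneous type 1 MDM. The part of these cells in the calls was not tested.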

How the data were processed

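Sorted MDM and microglia of mouse glioblastomas were profiled by RNA sequencing. RNA was isolated with TRIzol, chloroform and the miRNeasy Micro kit (QIAcube), and SMART-Seq v4 was used for the libraries, per the labels' protocols. The submitters' processing notes name STAR 2.7.8a, the build mm10 and DESeq2; the DESeq2 version is not given in the sources used here. The values the authors deposited are log2-like, and genes with no read sit at 4.22, the form of DESeq2's variance-stabilising transformation. The transformation was inverted in closed form, and 100% of values came back as whole reads to within 1e-06, which gave reads and normalised counts. The planned design took the table for normalised counts; a test suited to log2 values was used.

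The 17216 genes that reached 10 normalised counts in 3 or more libraries were tested. limma-trend was fitted to log2(normalised count + 1) with a mean for each of 8 groups. Libraries carry the number in their sample description, which some titles do not share. Groups were weighted equally, so fitted folds differ from ratios of pooled means. A call needs a Benjamini-Hochberg adjusted p below 0.05. The receptors, the 7 pathway lists and the tests were chosen with earlier results of these data known. Named genes were the receptors, up to 4 members of each list with the smallest p in a comparison, a set of named pathway genes, and the 5 genes with the highest Pearson r to each receptor over 21 and over 12 libraries; Ccnd1, Atp1b1 and other genes that a count comprises were named with it, after their values were seen. RefSeq GRCm38.p6 held 96.3% of the gene symbols, and positions come from it and from GENCODE M21.

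Alternatives were no filter or one at 50, a pseudocount of 8, quantile normalisation, rescaling to the same total, array weights, the deposited log2 values, voom on recovered reads, compared groups only, a replicate block, Xist as a covariate, and each library left out; leaving out 5 MDM or 3 microglia libraries was added after seeing the data. The fit was tested on simulated data. Some members of the lists are not reported here by name. Tools were limma 3.58.1 in R 4.3.3, and python 3.11.15 with matplotlib 3.10.9, scipy 1.17.1, numpy 2.4.6 and pandas 2.3.3.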

Additional observations from a re-analysis of the deposited data

Results flagged for a closer look

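Library 2 of type 2 transplanted microglia lay far from the other libraries of its groups for Nr3c1 and for Nr3c2. Its Nr3c1 level was 7160 normalised counts, and its gap to the next library was 0.74 of the range of the 6 transplanted microglia libraries and 0.647 of the range of the 6 type 2 microglia libraries. Its Nr3c2 level was 280.3 normalised counts, with gaps of 0.714 and 0.744 of the same ranges. The same library had a summed neutrophil marker level of 5208, against at most 1378 in the other microglia libraries, and a summed neural and glial marker level of 13861; their part in the receptor levels was not tested. For normally distributed values chance alone marks about 1 in 20 groups, and 24 groups were checked. The rule was applied to normalised counts and not to log2 values, so this rate may not hold here. The 4 found are not separate, since they are 2 values of 1 library in groups that share libraries. Without this library the fitted log2 difference in Nr3c1 between transplanted and spontaneous microglia was 0.51 ± 0.21, and that in Nr3c2 was 0.54 ± 0.54.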

How the results depend on the processing

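Differences of Esr1 between tumour types, and of Nr3c1 between tumour types of transplanted MDM and between models of type 1 MDM, changed sign when single libraries were left out (values below); the other receptor differences kept their direction. Without the 5 MDM libraries, 4133 genes were called between MDM and microglia. Between type 2 and type 1 microglia the count of 81 was 5 without 3 microglia libraries, 303 with array weights, 52 with the compared groups only and 32 with a filter at 50. Between transplanted and spontaneous microglia the count of 317 was 121, 2310 and 123 in the first 3 of these fits, 169 with no filter and 196 with voom. Between type 2 and type 1 transplanted MDM the count of 1018 was 560 with array weights and 327 with the compared groups only. The Nr3c2 difference was -1.27 (MDM minus microglia), -0.78 (type 2 minus type 1 transplanted MDM) and 1.12 (transplanted minus spontaneous type 1 MDM) on the deposited log2 values; the last was 1.71 with a pseudocount of 8, and that of Nr3c1 was 1.05 with the same total. The cause was not tested.

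With each library left out, counts were 6644 to 7567 for MDM minus microglia, 34 (without type 1 transplanted microglia 1) to 124 (without type 1 spontaneous microglia 2) for type 2 minus type 1 microglia, and 111 (without type 2 transplanted microglia 2) to 1535 (without type 2 spontaneous microglia 3) for transplanted minus spontaneous microglia. They were 79 (without type 2 transplanted MDM 3) to 2024 (without type 2 transplanted MDM 1) for type 2 minus type 1 transplanted MDM, and 948 (without type 1 spontaneous MDM 2) to 2632 for transplanted minus spontaneous type 1 MDM. In the same order of comparisons, the differences were -1.93 to -1.32, -0.44 to 0.14, 4.37 to 5.03, -0.22 to 1.19 and 1.10 to 2.90 for Esr1; -0.45 to -0.17, 0.25 to 0.46, 0.51 to 0.73, -0.27 to 0.08 and -0.05 to 1.06 for Nr3c1; and -2.64 to -2.19, 0.64 to 1.13, 0.54 to 1.03, -2.33 to -1.15 and 2.06 to 3.57 for Nr3c2. Where a group then held 1 library, that library was assumed to vary like the others. Without the type 2 spontaneous MDM library its tumour class drops out, as the type 1 transplanted class does without the 5 MDM libraries.

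The labels do not say whether MDM and microglia libraries with the same replicate number are pairs from the same tumour. Of 7 same-numbered pairs 2 correlated over 0.1 (0.035 to 0.241), and 7 of 7 correlated best with their own number. In 8 of 8 same-numbered pairs both libraries shared which of Xist and Ddx3y was higher. With the replicate block the counts were 7815, 81, 316, 1027 and 2325, and the Esr1 differences -1.61, -0.08, 4.75, 0.49 and 2.10. Replicate numbers are those of the sample descriptions, which match the columns of the table; those in the titles differ for some libraries. Among 8 same-numbered pairs the MDM library was lower in 8 for Esr1, in 5 for Nr3c1 and in 8 for Nr3c2. The depth limits Nr3c2 in MDM, where 2 libraries held 5 reads or fewer.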
